A study of Mus musculus with 20 samples.

Results

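Genes of the nuclear-encoded mitochondrial respiratory chain were followed while mouse embryonic stem cells were turned into epiblast stem cells. Members were taken by gene symbol from the table of 23361 genes: symbols beginning Nduf, Uqcr, Atp5 or Cox4 to Cox8, and Sdha, Sdhb, Sdhc and Sdhd. This gave 92 genes, of which 87 had 10 or more counts in at least 2 libraries, among 15705 genes of the whole table that met the same count rule. By their known place in the chain, 36 belong to complex I (35 met the count rule), 4 to complex II (all met it), 8 to complex III (all met it), 20 to complex IV (17 met it) and 15 to complex V (14 met it). Another 9 genes carry matching letters but are assembly factors or close relatives of subunits (Ndufaf1 to Ndufaf7, Atp5s and Atp5sl), and they were counted apart. The genes Ndufa4 and Ndufa4l2 were placed in complex IV, whose enzyme Ndufa4 is now known to belong to. The 5 genes that missed the count rule were Atp5g2, Cox6a2, Cox8b, Cox8c and Ndufs5.

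The respiratory chain sits in the inner mitochondrial membrane. Complex I takes electrons from NADH and complex II from succinate; both pass them through ubiquinone to complex III, cytochrome c and finally complex IV, which reduces oxygen. Complexes I, III and IV pump protons, and complex V, the ATP synthase, uses the gradient to make ATP. A small core of subunits is encoded in mitochondrial DNA, and all other subunits, those described here among them, are nuclear. The symbol rule does not take every nuclear subunit: Cyc1 of complex III, for example, is not among the members. Naive embryonic stem cells are known to respire actively, and primed epiblast stem cells are known to lean more on glycolysis.

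Cells of PGK, which is female, and of E14, which is male, were held in 2i medium at day 0 and then moved to N2B27 medium with activin A and Fgf2 on fibronectin. No gene was edited, and every library of a line comes from it, so an effect of sex cannot be told apart from any other difference of the lines. Each line was sampled at day 0, day 4, day 10, days 19 to 23 and days 27 to 30 once in each of 2 experiments named diff2 and diff3, so that the 10 groups held 2 libraries each. Both PGK libraries of the last stage were taken at day 29, and those of E14 at days 27 and 30. The cell type label of the diff3 libraries of day 0 reads ESCs-EpiSCs, unlike that of diff2, although their day is 0 and their medium 2i.

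Stage labels were checked against marker genes. A list of 12 naive pluripotency markers summed to 4683.8 to 6637.3 CPM, which are counts scaled to a library total of 1000000, in the 4 day 0 libraries and to 81.4 to 452.9 CPM in the 16 later ones. A list of 9 primed markers summed to 68.5 to 137.4 CPM at day 0 and 1376.5 to 3193.8 CPM later. Library totals ranged from 2020254 to 26936415 counts. The libraries E14 diff3 at day 0 (3376500 counts) and day 4 (2020254 counts) were shallow, and the first also stood apart: 10401 genes had a count there, against 12837 to 16699 in the other 19 libraries, and its correlation across genes with its replicate was 0.912, against 0.964 to 0.992 for the other pairs. A library code appears in the titles of the 6 diff2 libraries of days 0, 4 and 10 and of no other, so within diff2 the code changes between day 10 and the later stages. Results that rest on these libraries are given with and without them.

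The upstream DNA of 6 members is shown because the results below turn on them: Cox6a1, Uqcr10 and Ndufb5 were higher in all 4 day 0 libraries than in any later one, Cox5a had the smallest adjusted p over both lines, and Cox6b2 and Cox7b2 are paralogues with germ cell expression. Each line gives the 250 bases before the RefSeq start site (build GRCm38.p6), 5′ to 3′ on the gene's strand. Capitals mark matches to any of 4 searched motifs.
Cox6a1, chr5:115348959-115349208, minus strand: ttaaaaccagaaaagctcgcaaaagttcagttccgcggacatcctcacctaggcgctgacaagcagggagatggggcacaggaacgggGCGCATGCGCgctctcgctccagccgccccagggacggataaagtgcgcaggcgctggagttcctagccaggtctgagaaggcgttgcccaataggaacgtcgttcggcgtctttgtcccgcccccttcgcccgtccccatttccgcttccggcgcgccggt
Uqcr10, chr11:4704345-4704594, minus strand: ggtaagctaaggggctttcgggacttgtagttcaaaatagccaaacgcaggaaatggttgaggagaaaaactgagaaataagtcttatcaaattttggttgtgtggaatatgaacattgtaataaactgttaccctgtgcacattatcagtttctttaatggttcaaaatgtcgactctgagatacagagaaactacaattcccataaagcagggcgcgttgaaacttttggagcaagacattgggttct
Ndufb5, chr3:32736813-32737062, plus strand: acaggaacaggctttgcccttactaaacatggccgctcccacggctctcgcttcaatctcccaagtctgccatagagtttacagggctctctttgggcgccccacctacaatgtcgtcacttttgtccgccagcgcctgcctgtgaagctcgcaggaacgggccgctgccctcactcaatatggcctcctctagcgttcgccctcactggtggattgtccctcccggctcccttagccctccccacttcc
Cox5a, chr9:57520982-57521231, plus strand: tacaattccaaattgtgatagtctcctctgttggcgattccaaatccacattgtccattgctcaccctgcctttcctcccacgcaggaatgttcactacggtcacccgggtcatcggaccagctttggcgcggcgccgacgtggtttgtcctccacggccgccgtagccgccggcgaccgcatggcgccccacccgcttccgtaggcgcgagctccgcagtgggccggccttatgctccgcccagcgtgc
Cox6b2, chr7:4753095-4753344, minus strand: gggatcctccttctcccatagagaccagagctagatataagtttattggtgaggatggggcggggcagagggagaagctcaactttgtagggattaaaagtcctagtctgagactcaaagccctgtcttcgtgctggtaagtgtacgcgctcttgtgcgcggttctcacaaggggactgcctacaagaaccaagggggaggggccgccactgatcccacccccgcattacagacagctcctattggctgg
Cox7b2, chr5:71548206-71548455, minus strand: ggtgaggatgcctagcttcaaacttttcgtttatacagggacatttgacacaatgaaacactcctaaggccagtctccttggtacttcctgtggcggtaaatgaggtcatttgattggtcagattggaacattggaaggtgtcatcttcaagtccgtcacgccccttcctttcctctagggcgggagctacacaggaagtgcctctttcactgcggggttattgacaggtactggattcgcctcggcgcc

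Only the Cox6a1 sequence holds a match, to the 9 letters GCGCATGCG of NRF1, the nuclear respiratory factor known to act on many genes of the chain, read on both strands as overlapping matches. The RefSeq promoter table had entries for 73 of the 92 members, with 78 promoters of 300 bases each (250 before and 50 after the start). The NRF1 letters were in 12.8% of the member promoters (10 of 78: Atp5g2, Atp5k, Atp5l, Cox6a1, Ndufa8, Ndufa11, Ndufaf4, Ndufaf5, Uqcr11 and Uqcrc1), 1.75% of all 32851 promoters and 2.35% of the 21263 promoters of protein-coding genes. The letters AAGATGGCG, bound by YY1, were in 8.97% of member promoters (7 of 78) and 1.83% of protein-coding ones. The letters TCAAGGTCA, bound by estrogen-related receptors, were in 2.56% (Atp5g3 and Sdhd) against 0.334%, and the ETS letters CCGGAAGT in 6.41% against 5.15%. These shares are descriptions of letters in a window and show no binding. Member promoters held a median of 19 CpG dinucleotides, against 13 over protein-coding promoters. Over its 300 bases Cox5a held 35 and Cox6a1 32, while Cox6b2 and Cox7b2 held 10 each. All shares count both strands.

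The summed level of the subunits was highest at day 0 in both lines. Over complexes I to V (78 genes) it was 16135.4 and 12928.2 CPM in PGK diff2 and diff3 at day 0, 12476.9 and 11250.8 at day 4, 11658.6 and 10318.5 at day 10, 9495.3 and 10531.7 at days 19 to 23, and 10175.0 and 10532.1 at days 27 to 30. In E14 it was 13780.7 and 14527.2 CPM at day 0, 12654.7 and 10561.5 at day 4, 10173.4 and 12983.6 at day 10, 9433.7 and 10626.8 at days 19 to 23, and 10198.2 and 9525.7 at days 27 to 30. In CPM, both day 0 libraries of each line lay above every later library of that line. At days 27 to 30 the sum was 71.2% of day 0 in PGK and 69.7% in E14, and leaving out any of the 4 libraries of that comparison moved these to between 64.2% and 80.1% in PGK and 67.3% and 72.1% in E14. In the PGK libraries without a code the sum went from 12928.2 CPM at day 0 to 10175.0 and 10532.1 CPM at the last stage, so the order also held there. With library totals corrected by TMM, edgeR's scaling, the gap to day 10 nearly closed in E14. There day 0 diff3 had 13780.5 and day 10 diff3 had 13756.0 CPM.

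Complex IV, cytochrome c oxidase, had the lowest share left at the last stage. Its 17 genes summed to 3002.7 and 2699.1 CPM in PGK at day 0, then to 2003.3 and 1864.5 CPM at day 4 and 1512.1 and 1562.1 CPM at days 27 to 30. In E14 the sums were 2398.4 and 2814.7 CPM at day 0 and 1757.6 and 1584.9 CPM by day 4. They were higher again at day 10 (1824.6 and 2125.6 CPM). At days 19 to 23 they were 1513.8 and 1945.6 CPM, and at days 27 to 30 1601.4 and 1444.3 CPM. That is 53.9% of day 0 in PGK and 58.4% in E14, against 73.3% and 74.0% for complex I, 72.6% and 68.1% for complex II, 74.0% and 69.9% for complex III and 77.4% and 72.5% for complex V. The difference in share between the complexes was not tested. Groups at days 27 to 30 and day 0 did not overlap for any of the 5 complexes in either line. For complex II in PGK the size of the fall rests on the coded day 0 library, without which the share is 96.8%. The uncoded day 0 library had 603.8 CPM, only just above the 600.4 and 568.1 CPM of the last stage. The 9 assembly factors summed to 98.1% of day 0 in PGK and 105.5% in E14, with overlapping groups.

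**Figure D1:**
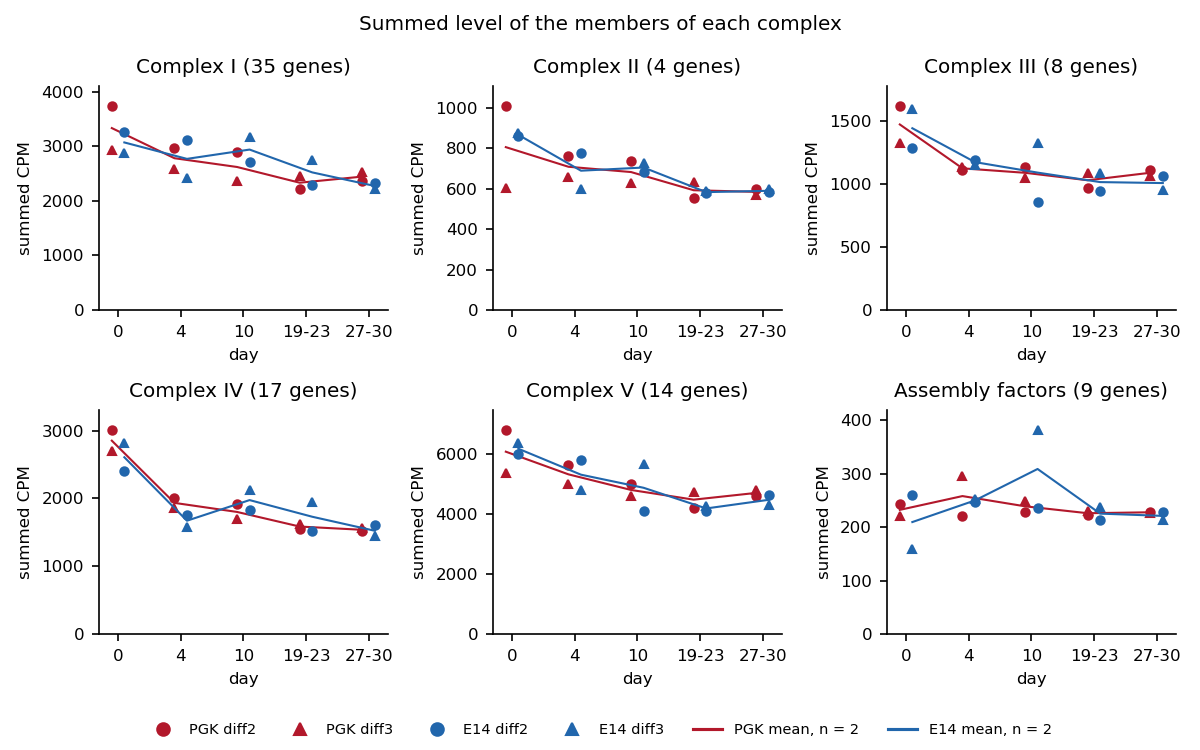
Summed level in CPM (y axis) of the members of each complex that met the count rule, by day (x axis), in every library, with lines through the group means of 2 libraries. Both day 0 libraries of each line lie above both libraries of days 27 to 30 for complexes I to V, and complex IV has its steepest step between day 0 and day 4.

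RNA in a bulk library mixes all cells, so fewer cells of a type and less RNA per cell cannot be told apart. Fibroblast, endoderm, muscle, neural and trophoblast markers were higher at days 27 to 30 than at day 0. Summed CPM of 8 fibroblast or feeder markers was 0.0 to 18.2 at day 0 and 84.9 to 251.1 at days 27 to 30, with 1 marker at 0 in all libraries of day 0 and none at the last stage. The ranges were 2.37 to 16.3 and 304.8 to 400.0 for 7 endoderm markers, 0.0 to 15.6 and 228.8 to 308.2 for 10 muscle markers, 52.2 to 93.3 and 490.2 to 578.3 for 5 neural markers, and 4.87 to 38.8 and 101.3 to 187.0 for 5 trophoblast markers. Their part in the lower level of the chain was not tested.

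Each gene was then tested with edgeR's quasi-likelihood test. A gene is said to rise or fall where its p-value, adjusted over all genes tested by the Benjamini-Hochberg method, was under 0.05. A change over both lines is the mean of the changes in the 2 lines, so a call there need not hold in each line. Member counts given for alternative fits have no share of all genes beside them, and show only how the calls depend on the fit. Alternatives named beside a single call need not be all those that ended it. Over both lines, 28 of 87 members tested fell between day 0 and days 27 to 30 and none rose, while 15.9% of all 15732 genes tested fell and 20.0% rose. Cox6a2, which had at most 9 counts in a library, is among the 28. Of the 86 tested members that met the count rule, 27 fell. Also among the 28 are Cox7b2 and Cox7b, which in E14 was higher at the last stage (mean 151.3 CPM) than at day 0 (128.8 CPM). Cox7b2 reached 10 counts only in PGK at days 0 and 4, and had at most 5 counts in an E14 library. Cox6a2, Cox7b and Cox7b2 are all in complex IV. The median log2 fold change of the members was −0.48, against 0.08 over all genes tested, and 83.9% of members had an estimate below 0, against 47.1% of all genes. By complex, 11 of 17 members tested fell in complex IV, 9 of 35 in complex I, 3 of 8 in complex III, 2 of 4 in complex II, 3 of 14 in complex V and none of the 9 assembly factors. Leaving out 1 library moved the count to 17 (without PGK day 0 diff2), 16 (without PGK days 27 to 30 diff3) or 18 (without E14 days 27 to 30 diff3), and it was 34 without both shallow libraries. In 12 of the 28 the call held under all 16 alternatives: Cox4i1, Cox5a, Cox6a1, Cox6b2, Cox7a2, Cox8a, Ndufa6, Ndufa13, Ndufb5, Ndufb11, Uqcr10 and Uqcrc1.

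Within PGK alone, 20 of 86 members tested fell between day 0 and days 27 to 30 and none rose, where 12.0% of all genes tested fell and 13.0% rose. The count was 7 without PGK day 0 diff2, 7 without PGK days 27 to 30 diff2 and 5 without PGK days 27 to 30 diff3; with only the uncoded libraries, a comparison chosen after the data were seen, it was again 20. Within E14, 4 of 85 fell (Cox6a1, Cox6b2, Cox8a and Uqcr10) and none rose, where 4.99% of all genes fell and 8.73% rose. Without E14 day 0 diff3 the E14 count was 2, without either library of days 27 to 30 it was 0, and without E14 day 0 diff2, which leaves the shallow library alone at day 0, it was 21 in both directions together. The 4 genes called in E14 were all among the 20 called in PGK, which are 100% and 20% of the respective lists. Of the 85 members tested in both lines, 62 had estimates below 0 in both, 7 above 0 in both and 16 of opposite sign. The estimate was below 0 for 87.2% of members in PGK and 77.6% in E14, against 52.1% and 44.0% of all genes. With such shares many members had to be below 0 in both lines. Shared calls and shared signs were not counted over all genes, so neither is read as agreement about the members.

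**Figure D2:**
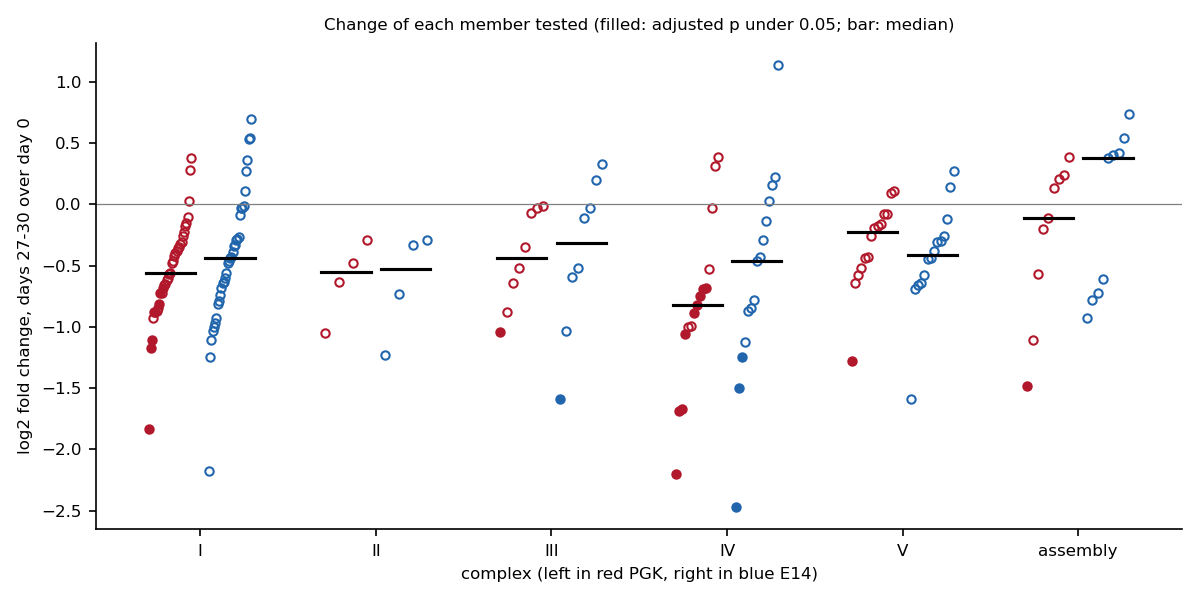
Log2 fold change of days 27 to 30 over day 0 (y axis) for each member tested, by complex (x axis), PGK on the left in red and E14 on the right in blue; filled points passed an adjusted p of 0.05 and black bars are medians. Most points lie below 0 in complexes I to V, and filled points are densest in complex IV of PGK, where the 10 called members include Cox7b2, which has no counts at the last stage and is not drawn.

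Within complex IV, Cox5a, a small subunit of the matrix side of the enzyme (GRCm38 chr9:57521274-57532426, plus strand), measured 572.9 and 490.2 CPM in PGK at day 0 and 255.3 and 217.5 CPM at day 4. It then stayed between 166.8 and 213.2 CPM in the 6 later PGK libraries. In E14 it measured 417.5 and 230.1 CPM at day 0, 220.9 and 276.7 at day 4, and 191.7 and 172.3 at days 27 to 30. The PGK groups did not overlap from day 4 on, whereas in E14 the shallow day 0 library lay within the day 4 range. In PGK the fall was already called at day 4 (log2 fold change −1.23 ± 0.19 SE, adjusted p = 0.0021, edgeR) and reached −1.67 ± 0.19 at days 27 to 30 (adjusted p = 0.000257, edgeR). In E14 at days 27 to 30 it was −0.85 ± 0.38 (adjusted p = 0.164, edgeR). The difference between lines was −0.78 ± 0.42 on the log2 scale (adjusted p = 0.812, edgeR), so a line-specific change was not shown.

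Cox6a1, the widely expressed form of subunit VIa (chr5:115345642-115348981, minus strand), shared 12.3% of its 50-base words with another gene, so some of its reads could be assigned elsewhere. It measured 219.7 and 194.4 CPM in PGK and 269.0 and 293.2 CPM in E14 at day 0, against 72.8 to 163.5 CPM in the 16 later libraries. No later library reached the day 0 range. At days 27 to 30 it was 104.9 and 104.2 CPM in PGK (−1.06 ± 0.26, adjusted p = 0.014, edgeR) and 106.8 and 91.6 CPM in E14 (−1.50 ± 0.36, adjusted p = 0.0214, edgeR). Without either PGK library of that stage the adjusted p was 0.0706 (diff2 left out) or 0.0851 (diff3 left out), and without either E14 library 0.115 or 0.191. Over both lines it fell by 1.25 ± 0.22 on the log2 scale (adjusted p = 0.000332, edgeR).

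Cox4i1, a large nuclear subunit that regulates the enzyme (chr8:120668222-120674207, plus strand), measured 571.2 and 521.2 CPM in PGK and 421.3 and 706.6 CPM in E14 at day 0. At days 27 to 30 it measured 360.4 and 352.7 CPM in PGK and 270.7 and 241.8 CPM in E14, below both day 0 libraries of each line. Over both lines it fell by 0.88 ± 0.19 on the log2 scale (adjusted p = 0.00186, edgeR). Cox8a, a small common subunit (chr19:7215153-7217616, minus strand), went from 225.3 and 159.0 to 117.6 and 123.8 CPM in PGK and from 192.0 and 341.2 to 124.8 and 96.8 CPM in E14 (−0.97 ± 0.20 over both lines, adjusted p = 0.0013, edgeR). Cox7a2, which has a muscle counterpart, Cox7a1, went from 145.6 ± 28.6 to 87.4 ± 5.16 CPM in PGK and from 163.2 ± 48.2 to 94.4 ± 4.19 CPM in E14 (SD, n = 2 each), a fall of 0.77 ± 0.19 over both lines (adjusted p = 0.00541, edgeR). Cox6c fell in PGK from 160.3 and 174.8 to 88.2 and 102.5 CPM, and Ndufa4 from 318.5 and 261.5 to 193.8 and 188.2 CPM (adjusted p = 0.0127 and 0.0224, edgeR). The Cox6c call was lost under 2 of 12 alternatives, among them the fit without PGK days 27 to 30 diff2. That of Ndufa4 was lost under 4 of 12, among them the fits without PGK day 0 diff2, days 27 to 30 diff2 or days 27 to 30 diff3. Cox6b1, the common form of subunit VIb, fell at day 4 in PGK from 254.3 and 241.9 to 162.6 and 171.9 CPM (−0.63 ± 0.18, adjusted p = 0.0434, edgeR), a call lost without any of those 4 libraries (0.0838 to 0.202).

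**Figure D3:**
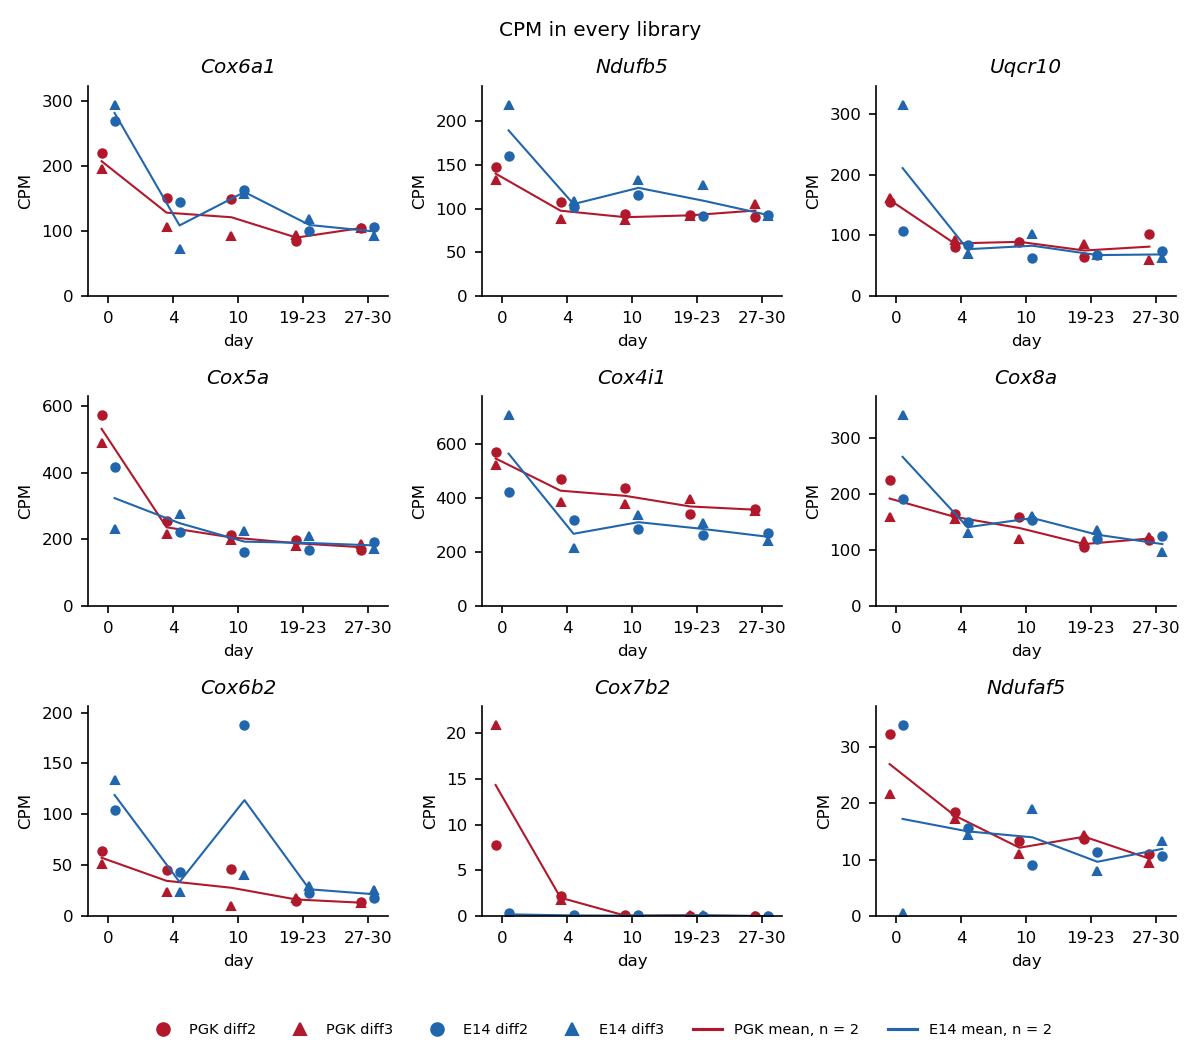
CPM (y axis) of 9 members in every library by day (x axis), with lines through group means of 2 libraries. In the top row all 4 day 0 libraries lie above all 16 later ones; Cox7b2 has 7.79 and 20.9 CPM in PGK at day 0 and none at days 27 to 30.

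Few members separated day 0 from all later stages completely. Cox6a1, Ndufb5 and Uqcr10 were the only members, 3 of 87 tested, whose 4 day 0 libraries all lay above the 16 later ones, against 5.17% of all genes tested; none lay wholly below, against 7.44%. A share of members near that of all genes is no result about the members. Ndufb5, an accessory subunit of complex I in its membrane arm, had 132.7 to 218.3 CPM at day 0 and 86.4 to 132.4 CPM later, so its groups touch closely. Uqcr10, a small subunit of complex III (chr11:4701973-4704342, minus strand), had 154.8 and 161.8 CPM in PGK and 107.0 and 314.2 CPM in E14 at day 0, and 59.8 to 102.9 CPM later. Its high E14 value comes from the shallow library. Over both lines it fell by 1.28 ± 0.29 on the log2 scale (adjusted p = 0.00233, edgeR). In E14 alone the call (−1.59 ± 0.47, adjusted p = 0.0499, edgeR) was lost without E14 day 0 diff3 (0.296) and without either library of days 27 to 30 (0.181 and 0.277). In PGK alone (−1.04 ± 0.27, adjusted p = 0.0192, edgeR) it was lost without PGK day 0 diff3 (0.0556) and days 27 to 30 diff3 (0.14).

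Complex I is the largest of the complexes and its members moved unevenly. Ndufs1, the largest core subunit with several iron-sulfur clusters, measured 223.0 and 221.7 CPM in PGK at day 0 and 194.5 and 227.5 CPM at days 27 to 30, and 198.3 and 185.4 against 200.6 and 175.7 CPM in E14. Its groups overlapped in both lines. Ndufv1, which carries the NADH binding site, went from 179.9 and 123.1 to 97.2 and 118.0 CPM in PGK and from 172.5 and 213.5 to 103.3 and 88.3 CPM in E14, a fall of 0.76 ± 0.24 over both lines (adjusted p = 0.0221, edgeR) that was lost without PGK day 0 diff2 (0.0626), PGK days 27 to 30 diff2 (0.0559) or E14 days 27 to 30 diff3 (0.0599). Of the accessory subunits called over both lines, Ndufb11 is described with the X-linked members. Ndufb5 fell by 0.78 ± 0.18 (adjusted p = 0.00272, edgeR), Ndufa6 by 0.85 ± 0.21 (adjusted p = 0.00542, edgeR) and Ndufa13 by 0.72 ± 0.19 (adjusted p = 0.00643, edgeR). Ndufa6 measured 113.9 and 79.6 CPM in PGK and 127.1 and 151.0 CPM in E14 at day 0, and 58.4 and 58.5 CPM and 62.6 and 79.7 CPM at days 27 to 30. For this gene the E14 groups did not overlap, and the PGK groups did not either. Ndufa9 went from 176.5 ± 23.2 to 116.8 ± 9.61 CPM and Ndufb6 from 104.2 ± 13.3 to 68.7 ± 4.95 CPM over both lines (SD, n = 4; adjusted p = 0.0184 for each, edgeR). The Ndufa9 call was lost without PGK days 27 to 30 diff3 (0.0511) and that of Ndufb6 with no filter on low counts (0.0555). In PGK alone, Ndufb2 fell from 60.0 and 39.8 to 23.4 and 25.3 CPM (adjusted p = 0.0338, edgeR) and Ndufa3 from 56.6 ± 4.95 to 32.5 ± 3.36 CPM (SD, n = 2; adjusted p = 0.0416, edgeR). The Ndufb2 call was lost without PGK day 0 diff2 (0.172) or either library of days 27 to 30 (0.128 and 0.119), and that of Ndufa3 without any 1 of those 4 libraries (0.0598 to 0.191). With only uncoded libraries these reached 0.0779 and 0.0525. Ndufs7 and Ndufa7, called over both lines (adjusted p = 0.0322 and 0.0476, edgeR), reached 0.113 and 0.194 with a term for the library code. Their calls were lost under 6 and 9 of 16 alternatives. Ndufa7 had 177.0 and 77.4 CPM in the 2 PGK day 0 libraries, and 73.9 and 71.7 CPM at the last stage. Ndufa5 measured 32.6 to 70.0 CPM in 19 libraries and 0.296 CPM, which is 1 count, in E14 day 0 diff3.

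In complex II, which also works in the citrate cycle, Sdhb, the iron-sulfur subunit, and Sdhc, a membrane anchor, fell over both lines (−0.90 ± 0.26 and −0.86 ± 0.26, adjusted p = 0.0143 and 0.0173, edgeR). Sdhb measured 197.9 and 100.9 CPM in PGK at day 0 and 110.2 and 93.3 CPM at days 27 to 30, so these PGK groups overlap; in E14 it went from 203.7 and 256.5 to 103.4 and 92.7 CPM. Both calls were lost without PGK day 0 diff2 (0.0631 and 0.0936) or PGK days 27 to 30 diff3 (0.0573 and 0.0662). Sdha, the flavoprotein, had an estimate of −0.35 ± 0.18 (adjusted p = 0.146, edgeR). In complex III, the core subunit Uqcrc1 measured 506.3 and 263.9 CPM in PGK and 403.7 and 321.0 CPM in E14 at day 0, and 213.5, 227.2, 200.5 and 155.8 CPM at days 27 to 30. It fell by 0.92 ± 0.24 over both lines (adjusted p = 0.00684, edgeR). Uqcrc2, the other core subunit, went from 388.5 ± 56.4 to 267.3 ± 11.9 CPM over both lines (SD, n = 4; adjusted p = 0.0172, edgeR), a call lost without PGK day 0 diff2 (0.0526) or PGK days 27 to 30 diff3 (0.0573). Uqcrfs1, the Rieske iron-sulfur protein, did not pass the test: it measured 144.0 and 154.4 CPM in PGK at day 0 and 167.5 and 140.4 CPM at the last stage, and 105.7 and 136.2 against 160.0 and 143.4 CPM in E14.

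Complex V held the most abundant members and, over both lines, the 2 smallest called changes. Atp5b, the catalytic beta subunit, measured 2967.2 and 2181.4 CPM in PGK and 2765.5 and 2412.3 CPM in E14 at day 0, and 1879.8, 1913.4, 1965.8 and 1834.0 CPM at days 27 to 30. It fell by 0.45 ± 0.17 over both lines (adjusted p = 0.0472, edgeR). Atp5a1, the alpha subunit, fell by 0.51 ± 0.17 (adjusted p = 0.0283, edgeR), from 1754.5, 1287.3, 1546.9 and 1805.7 CPM to 1156.1, 1217.2, 1093.3 and 1049.1 CPM. No library of the last stage reached a day 0 library in either gene. Both calls depend on single libraries: that of Atp5b was lost without any 1 of 6 libraries (adjusted p 0.0553 to 0.113, the highest without PGK day 0 diff2) and with the replicate block (0.0597), and that of Atp5a1 without PGK day 0 diff2 (0.0724), PGK days 27 to 30 diff2 (0.0502) or diff3 (0.0669), or E14 days 27 to 30 diff3 (0.0571). Atp5j2, the f subunit, had 155.2 and 77.8 CPM in PGK at day 0 and 50.6 ± 0.933 CPM (SD, n = 2) at the last stage. It was called over both lines (adjusted p = 0.0305, edgeR), with 0.103 once the library code was a term. This call was lost under 7 of 16 alternatives.

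At day 4 the sum over complexes I to V stood at 81.6% of day 0 in PGK and 82.0% in E14. Between day 0 and day 4, 6 of 86 members tested fell in PGK (Cox5a, Cox7b, Ndufa3, Cox6c, Cox6b1 and Uqcr10) and none rose, where 6.44% of all genes fell and 8.35% rose; the median was −0.32, against −0.01 over all genes. The count was 2 without PGK day 0 diff2, 3 without PGK day 4 diff2 and 2 without PGK day 4 diff3. In E14, 1 of 85 fell (Cox6a1, −1.33 ± 0.36, adjusted p = 0.0426, edgeR) and none rose, where 4.40% of all genes fell and 5.16% rose; this call was lost without E14 day 0 diff3 (0.0745) or E14 day 4 diff3 (0.217), both shallow, and the count was 16 without E14 day 0 diff2. Over both lines 9 of 87 fell and none rose, where 11.1% of all genes fell and 14.5% rose, so the share of members that fell was near that of all genes. The count was 5 without both shallow libraries, 3 without PGK day 4 diff3 and 21 without E14 day 0 diff2.

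Later steps brought no called member. Between day 4 and day 10, none of 86 members passed in PGK, where 1.05% of all genes rose and 0.465% fell, and none of 85 in E14, where 0.145% rose and 0.0414% fell; 1 member in each line had an unadjusted p under 0.05. DESeq2 called 1 member in this PGK step and none in E14. Between day 10 and days 27 to 30, no member and 0.0% of all genes were called by edgeR in either direction in PGK or in E14, with 3 and 2 members at an unadjusted p under 0.05; DESeq2 called none in PGK and 1 in E14. In E14 the estimate was below 0 for 95.3% of members in this step (median −0.35), against 53.9% of all genes (median −0.06), but without E14 day 10 diff3 for 51.2% (median −0.02).

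No member passed the test of a difference between the lines. For the change from day 0 to day 4 the difference between PGK and E14 called none of 87 members and 0.0381% of all genes in each direction. For days 27 to 30 it called none, where 0.0191% of all genes were higher and 0.0318% lower in PGK. In each of these tests 1 member, Cox7b, had an unadjusted p under 0.05; without E14 day 0 diff2 the counts were 10 and 11. Over the 5 stages PGK against E14 called none of 87, where 1.07% of all genes were higher and 0.515% lower in PGK, with 12 members at an unadjusted p under 0.05 and 5 called by DESeq2. The smallest p was that of Ndufb7, a complex I subunit, with 88.6 ± 21.6 CPM in PGK and 60.8 ± 13.3 CPM in E14 (SD, n = 10 each; adjusted p = 0.0698, edgeR). This count was 6 without E14 day 0 diff2, 3 without E14 day 0 diff3, 2 without E14 day 10 diff3, and 1 without PGK day 10 diff2, E14 day 4 diff2 or E14 day 10 diff2.

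The members lie on 19 of the chromosomes, the X among them, and on none of the others. The 3 X-linked ones, Cox7b, Ndufa1 and Ndufb11, are described together because female stem cells in 2i are known to keep both X chromosomes active and to silence 1 of them on differentiation; they were singled out after their values were seen. Cox7b, a small complex IV subunit (chrX:106015700-106022450, plus strand), measured 340.9 and 345.2 CPM in PGK at day 0, 143.4 and 197.9 at day 4, 98.2 and 138.9 at day 10 and 97.7 and 126.6 at days 27 to 30. In E14 it measured 150.0 and 107.5 CPM at day 0 and 163.9 and 138.6 CPM at days 27 to 30. The PGK day 0 libraries were thus above all other libraries of either line. In PGK it fell by 1.69 ± 0.26 on the log2 scale (adjusted p = 0.0012, edgeR). The difference of this change from that in E14 was −1.87 ± 0.51, with an unadjusted p of 0.00202 and an adjusted p of 0.418 (edgeR), so it failed the correction.

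Ndufa1, a complex I subunit (chrX:37187588-37191163, minus strand), measured 98.8 and 46.6 CPM in PGK at day 0, 86.7 and 39.0 at day 4 and 21.2 and 21.9 at days 27 to 30. In E14 it measured 37.6 and 9.77 CPM at day 0 and 17.7 and 21.5 CPM at days 27 to 30, where its groups overlap. The fall in PGK (−1.83 ± 0.50, adjusted p = 0.0228, edgeR) was lost without PGK day 0 diff2 (0.138) or either library of days 27 to 30 (0.101 and 0.112), and the difference between lines was −1.46 ± 0.82 (adjusted p = 0.831, edgeR). Ndufb11, another complex I subunit (chrX:20615326-20617619, minus strand), was lower at the last stage in both lines: 127.9 and 110.2 CPM in PGK and 86.9 and 191.3 CPM in E14 at day 0 went to 61.7 and 50.4 CPM and to 54.8 and 60.7 CPM. Its difference between lines was 0.13 ± 0.46 on the log2 scale, an interval too wide to show equal change. Over both lines it fell by 1.18 ± 0.23 (adjusted p = 0.000881, edgeR).

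**Figure D4:**
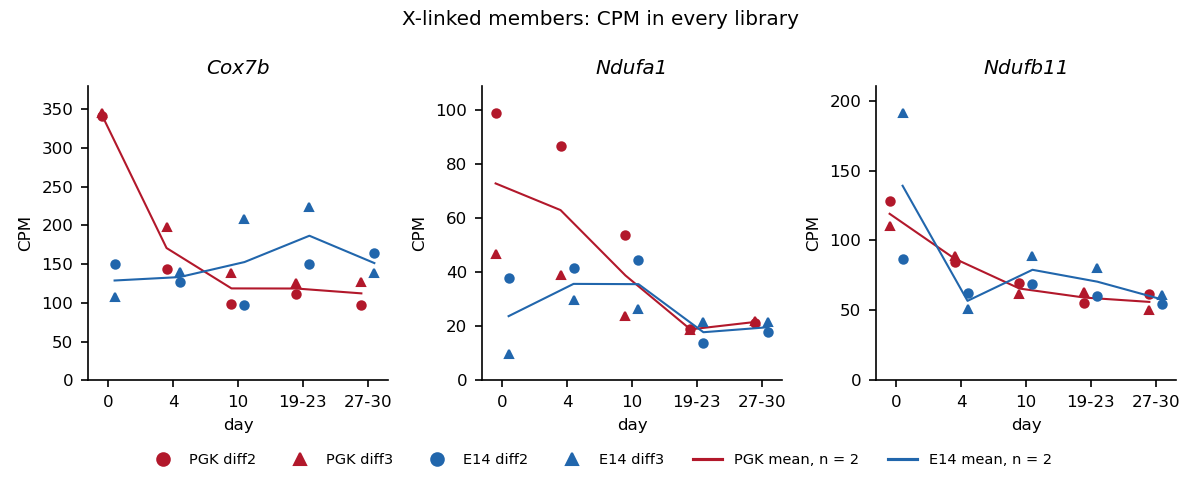
CPM (y axis) of the 3 X-linked members in every library by day (x axis), with lines through group means of 2 libraries. Cox7b sits at 340.9 and 345.2 CPM in PGK at day 0, above all other libraries, and Ndufb11 is highest in the shallow E14 day 0 library at 191.3 CPM.

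Several complex IV subunits exist as a common form and a form known from particular tissues. Levels of such pairs were set side by side as CPM per kilobase of exon. The common forms dominated throughout. Cox6b2, the testis form of subunit VIb (chr7:4751792-4753094, minus strand), made up 13.8% and 11.8% of the Cox6b1 and Cox6b2 total in PGK at day 0 and 22.8% and 37.0% in E14, and 4.81%, 4.07%, 5.16% and 8.24% at days 27 to 30. Its own level went from 64.0 and 50.7 to 13.9 and 12.4 CPM in PGK and from 104.4 and 133.6 to 17.3 and 25.6 CPM in E14. It fell by 2.31 ± 0.46 on the log2 scale over both lines (adjusted p = 0.00104, edgeR). The course was not even: E14 day 10 diff2 had 187.7 CPM and diff3 40.2 CPM.

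Cox7b2, a form of subunit VIIb known from germ cells (chr5:71442824-71548205, minus strand), had 96 and 447 counts in PGK at day 0 (7.79 and 20.9 CPM), 32 and 39 at day 4 and none at days 27 to 30. With 3 counts over both last libraries as the floor, it was at least 215-fold lower there, a bound to which diff3 contributes most. In E14 it had 5 and 0 counts at day 0 and at most 3 in any later library. Cyct, the testis cytochrome c, which carries electrons to complex IV, averaged 11.2 ± 9.15 CPM at day 0 and 0.0209 ± 0.0419 CPM at days 27 to 30 over both lines (SD, n = 4). A list of 7 germ line markers summed to 58.3 to 302.5 CPM at day 0, 119.1 to 384.6 at day 4, 15.8 to 61.7 at day 10 and 6.98 to 59.4 at days 27 to 30, with 2 of 7 at 0 in every library of the last stage. Whether these genes belong to the same cells was not tested.

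Muscle forms stayed low. Cox7a1 made up 12.5% and 6.92% of its pair with Cox7a2 in PGK at day 0 and 11.2% and 6.89% at days 27 to 30, and 19.7% and 0.0% in E14 at day 0 against 11.7% and 11.6%. Cox6a2 had at most 9 counts in any library, and its call over both lines was lost under 14 of 16 alternatives. Cox8b had no count in any library, and Cox8c 3 counts in all. Cox4i2, a form known from lung and low oxygen, had at most 12 counts in a library and was not tested. Ndufa4l2, known as a target of hypoxia-inducible factor, measured 1.01 ± 0.729 CPM in PGK and 5.66 ± 4.0 CPM in E14 over the 5 stages (SD, n = 10 each; adjusted p = 0.0915, edgeR). Among the 3 genes for the c subunit of complex V, which encode the same mature protein, Atp5g3 was far above Atp5g1, at 219.7 ± 20.3 against 8.09 ± 3.88 CPM per kilobase in PGK at day 0 and 171.7 ± 20.6 against 7.55 ± 0.793 at days 27 to 30 (SD, n = 2). Atp5g2 had 47 counts in all.

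Several members had very low counts. Words of 50 bases were compared between the annotated transcripts of 91 member entries and those of all other genes, pseudogenes included. In 19 members 10% or more of the words also occurred in another gene, and their median level was 28.1 CPM, against 78.9 CPM in the other 72. Atp5l shared 68.5% of its words with 13 genes and had 0.221 to 6.93 CPM, and Cox7c shared 27.9% and had 0.0639 to 3.96 CPM. Ndufs5 shared 31.1% and had 3 counts in all libraries together. Atp5h (47.9%) and Uqcrb (43.2%) were also high in shared words. How reads that fit several genes were counted is not given in the sources used here, so levels of these 19 genes are uncertain; of the genes called over both lines, Cox6a1 and Cox6c are among them.

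Of the 9 assembly factors taken by the symbol rule, 1 passed the test in PGK at days 27 to 30 and none over both lines. Ndufaf5, needed for complex I assembly, went from 32.2 and 21.6 to 11.0 and 9.34 CPM in PGK (−1.48 ± 0.36, adjusted p = 0.0148, edgeR). The call was lost without PGK day 0 diff2 (0.0781) and PGK days 27 to 30 diff3 (0.0919), and in E14 the day 0 libraries had 33.8 and 0.592 CPM. Ndufaf4 measured 41.9 and 43.4 CPM in PGK at day 0 and 59.3 and 124.1 CPM at day 4 (1.05 ± 0.38, adjusted p = 0.0952, edgeR), and 141.5 CPM in E14 day 10 diff3. In a wider list of complex assembly factors outside the symbol rule, 1 of 34 tested rose between day 0 and days 27 to 30 over both lines (Coa3) and 4 fell (Cox17, Cox18, Oxa1l and Pet117), where 20.0% of all genes rose and 15.9% fell, with a median of −0.01. Both shares of this list were below those of all genes. Cox17, a copper chaperone for complex IV, went from 94.6 ± 27.2 to 36.7 ± 3.2 CPM (SD, n = 4; adjusted p = 0.000831, edgeR), and Oxa1l, which inserts proteins into the inner membrane, from 122.1 ± 32.9 to 69.1 ± 4.89 CPM (adjusted p = 0.0083, edgeR).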

How the data were processed

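Messenger RNA was sequenced from 20 libraries, and the submitters' processing notes name CASAVA 1.8.2, Cuffdiff and DESeq2 and the builds GRCm38 and mm10. Deposited raw counts per gene were the values tested. The deposited signal equals the counts divided by 1 constant per library to within rounding, and the deposited log2 values are variance-stabilized separately for each line, so they served only as an alternative within a line or over both lines, not for contrasts between lines. No source used here gives the aligner, the annotation, the use of strand or the treatment of reads that fit several genes. Symbols were matched to GENCODE M21, where 90 of the 92 members had a single gene.

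CPM are counts scaled to 1000000 of the library total. edgeR 4.0.16 (R 4.3.3, TMM, filterByExpr with a minimum count of 10, robust quasi-likelihood) was fitted within each line (10 libraries, 5 residual degrees of freedom, 15284 genes in PGK and 14501 in E14) and over all 20 libraries (10 degrees of freedom, 15732 genes), with Benjamini-Hochberg adjustment over all genes and a threshold of 0.05. SE is the size of the log2 fold change over the square root of F. The procedure was tested on simulated data. The filter of the fit is not the count rule: Cox4i2 was not tested, Cox7b2 not in E14, and Cox6a2 was tested over both lines. Nothing beyond the experiment names says that the 2 libraries of a group came from separate cultures, so p-values measure only the spread between these libraries. Alternatives were DESeq2 1.42.0, limma 3.58.1 on the deposited log2 values, other size factors, no filter, a replicate block, a term for the library code, the joint fit and leaving out libraries. The experiment name, shared within a line, pairs the libraries per the labels; diff2 minus diff3 deviations correlated at 0.42 to 0.55 among days 0, 4 and 10 of PGK, 0.14 to 0.24 in E14, and −0.21 to 0.13 for other pairs of stages. Members, gene lists and the rule for named genes (fixed core subunits and paralogues, and up to 3 called members per complex and comparison with the smallest adjusted p) were chosen with earlier results of these data known; Ndufb5, the X-linked genes and other called members were added after their values were seen.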

Additional observations from a re-analysis of the deposited data

How the results depend on the processing

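Of 969 recomputed calls of single members, 759 kept their call, 210 lost it and none changed direction. For days 27 to 30 against day 0, members called numbered 20 in PGK (33 with DESeq2, 7 in the joint fit, 5 to 29 with single libraries left out), 4 in E14 (11 with DESeq2, 9 with a term for the library code, 11 in the joint fit, 45 with only uncoded libraries, 0 to 21 with single libraries left out) and 28 over both lines (52 with only uncoded libraries, 16 to 37 with single libraries left out). For day 4 against day 0 they numbered 6 in PGK (11 with DESeq2, 17 with the code term, 1 in the joint fit, 2 to 5 with single libraries left out), 1 in E14 (6 with DESeq2, 3 without a filter, 2 with the code term, 5 in the joint fit, 33 with only uncoded libraries, 0 without both shallow libraries, 0 to 16 with single libraries left out) and 9 over both lines (14 with the code term, 34 with only uncoded libraries, 5 without both shallow libraries, 3 to 21 with single libraries left out). The uncoded set, chosen after the data were seen, leaves only the shallow E14 libraries at days 0 and 4, and 11 of its 45 E14 calls were higher. Where the count was 0, DESeq2 and no filter each gave 1 for PGK day 10 against day 4, DESeq2 gave 1 for E14 days 27 to 30 against day 10, and single libraries left out gave 0 to 10 and 0 to 11 for the differences between lines. PGK against E14 went from 0 to 5 with DESeq2, 1 without a filter, 2 with the code term, 2 without both shallow libraries and 0 to 6 with single libraries left out. With the replicate block, which pairs libraries by experiment, the counts were 7 and 26 in PGK and 1 and 3 in E14 for day 4 and days 27 to 30 against day 0, and 9 and 26 over both lines; it moved no count by over 1.5 times, and it ended the calls of Uqcr10 in E14 (0.0599), Atp5b (0.0597), Cox6a2 (0.0714) and, at day 4, Cox8a (0.0571) over both lines. The cause of these shifts was not tested. The share of all genes called under each alternative is not given, so these counts are no result about the members. The floor of 3 counts equals 0.888 and 1.48 CPM in the shallow libraries and 0.111 to 0.253 CPM in the others.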

Other observations

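Of 17 citrate cycle and pyruvate dehydrogenase genes tested, 3 fell between day 0 and days 27 to 30 over both lines and none rose, where 15.9% of all genes fell and 20.0% rose. Their share that fell was thus near that of all genes, and their median was −0.33 on the log2 scale, against 0.08 over all genes. Among those that fell, Pdha1, the X-linked pyruvate dehydrogenase subunit that feeds the cycle, went from a mean of 547.4 to 260.3 CPM (n = 4 libraries each; log2 fold change −1.09 ± 0.21 SE, adjusted p = 0.000802, edgeR). Idh3g, a subunit of isocitrate dehydrogenase, went from 258.6 to 99.0 CPM (−1.30 ± 0.30, adjusted p = 0.00334, edgeR). In PGK alone 5 of the 17 fell, Pdha1 and Idh3g among them, where 12.0% of all genes fell. In E14 alone none of the 17 was called, where 4.99% of all genes fell. The median of the 17 was −0.19 in PGK and −0.41 in E14. Over both lines, 18 genes for electron carriers and for enzymes that make ubiquinone or feed it were tested. Of these, 4 fell (Coq6, Coq9, Cyct and Etfb) and 1 rose (Sqrdl), where 15.9% of all genes fell and 20.0% rose. Their median was −0.25. Of 75 genes of the mitochondrial ribosome tested, 7 fell and 2 rose, with a median of −0.07. Both shares of the ribosome list were below those of all genes; the differences between these lists and all genes were not tested.

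Among 24 known regulators of respiratory genes tested, 5 rose and 5 fell, where 20.0% of all genes rose and 15.9% fell, so these shares were near those of all genes. Lin28a and Lin28b, RNA-binding proteins known to bind transcripts of the chain, went from 23.5 ± 24.8 to 499.6 ± 57.9 CPM and from 13.7 ± 5.96 to 192.8 ± 15.1 CPM (SD, n = 4; adjusted p = 9.41e-09 and 1.19e-07, edgeR). Myc rose from 1.47 ± 1.02 to 72.3 ± 17.7 CPM (adjusted p = 2.62e-07, edgeR). Esrrb, an estrogen-related receptor that also marks naive cells, fell from 1123.7 ± 350.5 to 4.42 ± 2.23 CPM (adjusted p = 1.33e-08, edgeR), and Stat3 from 235.9 ± 77.4 to 63.8 ± 13.9 CPM (adjusted p = 0.00138, edgeR). The relation of these changes to the level of the chain was not tested.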
